A study of Homo sapiens with 3 samples.

Results

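A constitutive intronic poly(A) site (pA) was taken here as a pA that the authors assigned to an intron and that had at least 5 RPM (reads scaled to the library total) in each of 3 libraries. Of 11989 intronic pAs in the table, 449 met this rule, which is 3.75% of the intronic pAs and 1.42% of all 31565 pAs. They lay in 388 genes, here called host genes, out of 5479 genes with an intronic pA and 9431 genes in all. The levels themselves chose these pAs, so that levels, ratios and shares of the 449 pAs are given as a description with no test.

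The libraries are of RKO, an established, poorly differentiated human colon carcinoma cell line. Nuclear RNA was taken from cells at baseline (0 h) and from UV-irradiated cells that recovered for 0.5 h or for 2 h, with 1 library for each time point. A change between time points therefore has no replicate check, and every test below compares the reads of 2 libraries and not 2 conditions. All values come from 3ʹREADS, which sequences RNA fragments up to their poly(A) tail, and each read marks where a transcript was cleaved and polyadenylated.

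Cleavage and polyadenylation at a pA ends the RNA that RNA polymerase II makes from a gene. Most mRNAs end at a pA in the 3ʹ-most exon, and use of a pA within an intron yields a shorter transcript that lacks the downstream exons and often has a different coding end. In the nucleus, U1 snRNP, the particle that recognises 5ʹ splice sites, also keeps cleavage at pAs inside introns low. Some intronic pAs are nevertheless used in unperturbed cells and end stable mRNA isoforms, such as secreted or truncated forms of receptors and a short form of the cleavage factor gene CSTF3.

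The libraries held 433261, 501838 and 438040 reads at 0, 0.5 and 2 h, and 1 read was worth 2.31, 1.99 and 2.28 RPM. A level of 5 RPM thus asked for 3 or more reads per library. Of the markers of epithelium, KRT8, KRT18 and EPCAM were detected and CDH1 had no pA listed. Levels were low, with 4.62, 5.98 and 9.13 RPM for KRT18 and 16.2, 12.0 and 0 RPM for EPCAM at 0, 0.5 and 2 h. None of 5 fibroblast and 3 immune markers had a pA listed, and 1 of 6 markers of differentiated colon epithelium had reads (CA2, at 2 h). KRT8 is itself a host gene, with 3, 4 and 10 reads at its constitutive intronic pA and no 3ʹ-most-exon reads. In these bulk libraries, fewer cells with a transcript and less of it per cell cannot be told apart.

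The constitutive intronic pAs held most of the intronic reads before irradiation and a smaller share at 2 h. They took 23039 of 29719 intronic reads at 0 h, which is 77.5% (95% Clopper-Pearson interval 77.0 to 78.0). The share was 72.2% at 0.5 h (21745 of 30114 reads, 71.7 to 72.7) and 55.3% at 2 h (20469 of 37025 reads, 54.8 to 55.8). Such intervals reflect counting error alone, with each read taken as independent. Reads that come from the same molecule, if present, would make them too narrow. Their summed level was 53176, 43331 and 46729 RPM at the 3 times, while the other 11540 intronic pAs summed to 15418, 16677 and 37796 RPM. The share at 2 h was thus smaller while the summed level of the constitutive pAs was close to that at 0 h. The other intronic pAs had a higher level. The rule itself sets part of this contrast. A pA with too few reads at 0 or 0.5 h and many at 2 h falls among the other pAs. The same holds for a pA read only at 0 h. How much of the contrast comes from the rule was not tested. Reads were seen at 3376, 3496 and 6950 of these other pAs at 0, 0.5 and 2 h.

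**Figure D1:**
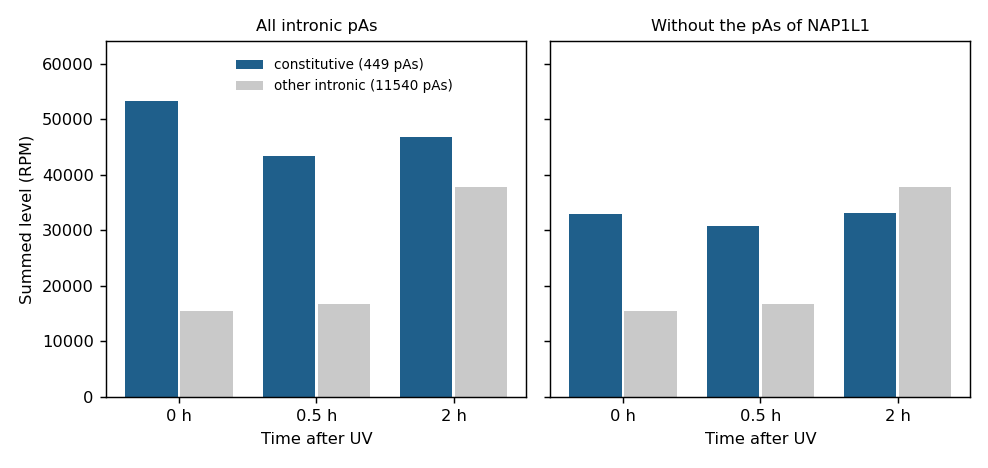
Summed level (RPM) at 0, 0.5 and 2 h after UV of the 449 constitutive intronic pAs and the 11540 other intronic pAs, with all constitutive pAs (left) and without those of NAP1L1 (right). The constitutive bars stay between 43331 and 53176 RPM in the left panel, while the bars of the other pAs reach 37796 RPM at 2 h against 15418 RPM at 0 h. The rule places pAs with too few reads at 0 or 0.5 h among the others, which sets part of this contrast.

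One gene weighed on these sums. NAP1L1, which encodes a histone chaperone of nucleosome assembly, had 8667, 6165 and 5862 reads at 0, 0.5 and 2 h at a single intronic pA on the minus strand of chromosome 12 (hg19, position 76443346). That pA took 37.6%, 28.4% and 28.6% of all reads at constitutive intronic pAs. It also held 98.6%, 97.9% and 98.4% of the intronic and 3ʹ-most-exon reads of NAP1L1, whose 3ʹ-most exon had 1, 2 and 1 reads. Without the 3 constitutive pAs of NAP1L1 the share of intronic reads was 68.1%, 64.9% and 46.7%, and the summed level was 32948, 30807 and 33150 RPM. The smaller share at 2 h was therefore seen with and without this gene. Both versions use the same rule, so that leaving out NAP1L1 does not show how much of the smaller share the rule sets.

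Most constitutive intronic pAs were far less abundant. Their median level was 23.1, 25.9 and 25.1 RPM at the 3 times, which is 10, 13 and 11 reads. The quartiles were 11.5 and 55.4 RPM at 0 h, 13.9 and 49.8 RPM at 0.5 h, and 16.0 and 52.5 RPM at 2 h. The 10 most abundant pAs held 55.9%, 47.1% and 44.5% of all reads at constitutive intronic pAs. The reads were thus concentrated in a few pAs, and the typical pA rested on few reads.

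Among the next most abundant pAs were those of 3 ribosomal protein genes. RPS24, a protein of the small ribosomal subunit, had 763, 674 and 522 reads at 0, 0.5 and 2 h (chromosome 10, position 79800455, plus strand) beside 1, 2 and 1 reads in its 3ʹ-most exon. RPS3, another protein of the small subunit, had 443, 419 and 303 reads, and RPL31, of the large subunit, had 484, 309 and 325. ABCF2, a member of the ABC family of ATP-binding proteins, had 566, 410 and 362 reads. All of these were lower at both later times than at 0 h in RPM. Ribosomal protein genes have many near-identical pseudogenes, and how reads matching several places were counted is not given in the sources used here, so that the values of RPS24, RPS3 and RPL31 are less certain.

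Other abundant pAs were higher at 2 h. TCEB2, which encodes elongin B, had 379, 401 and 520 reads at its intronic pA (chromosome 16, position 2821944, minus strand), and 26, 11 and 6 in the 3ʹ-most exon. ETNK1, an ethanolamine kinase, had 313, 431 and 469 intronic reads (chromosome 12, position 22797349, plus strand) and 23, 24 and 6 in the 3ʹ-most exon. In both genes the intronic pA was the higher one at every time, and the gap was widest at 2 h. DBF4B, a regulatory partner of the CDC7 kinase of DNA replication, was highest at 0.5 h, with 233, 535 and 341 reads. MTERFD2, of the mitochondrial transcription termination factor family, was also highest at 0.5 h, with 358, 517 and 279 reads.

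Many constitutive intronic pAs held a large part of the intronic and 3ʹ-most-exon reads listed for their genes. Over the 3 libraries together, the median constitutive pA held 52.5% of the intronic and 3ʹ-most-exon reads of its gene, against 7.14% for the other intronic pAs. A share of at least 90% was held by 79 of the 449 pAs (17.6%), against 654 of the 11540 others (5.67%). A share under 10% was held by 57 constitutive pAs (12.7%), against 6663 others (57.7%). The pA was the most abundant pA of its gene in 278 cases (61.9%). In the table, 103 constitutive pAs in 92 genes (22.9% of the pAs), most of them among those 278, had no 3ʹ-most-exon pA, which was also so for 2114 of the others (18.3%). The rule fixes part of this contrast, because a minimum level favours pAs with many reads. The assignment to an intron is that of the authors. Whether such a pA is the usual end of an mRNA of its gene was not examined, so a high share need not mean a truncated transcript.

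**Figure D2:**
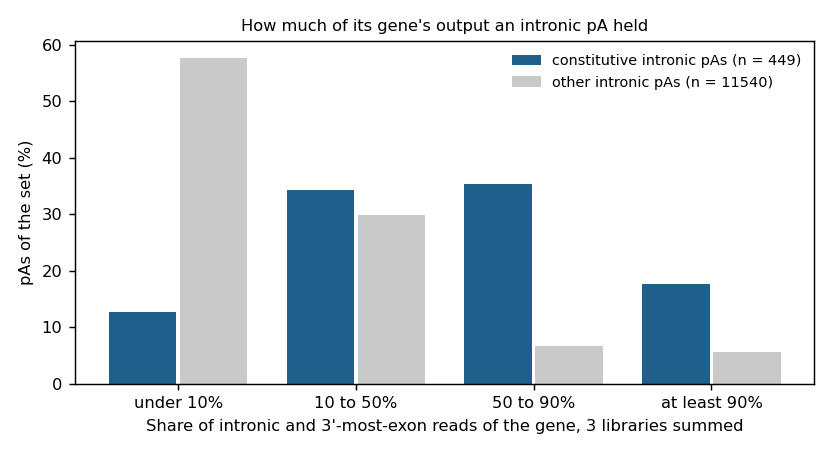
Percent of the 449 constitutive (blue) and the 11540 other (grey) intronic pAs by the share of the intronic and 3ʹ-most-exon reads of the gene that the pA held over 3 libraries. Constitutive pAs make up 17.6% in the highest class against 5.67% of the others, and 12.7% in the lowest class against 57.7%.

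Genes at the upper end were read almost only at the intronic pA. ECE2, an endothelin-converting protease, had 54, 32 and 53 reads at its intronic pA at 0, 0.5 and 2 h and none elsewhere in introns or in a 3ʹ-most exon. HAS3, a hyaluronan synthase, had 123, 160 and 205 intronic reads and 0, 0 and 1 in the 3ʹ-most exon. MRPL43, a mitochondrial ribosomal protein, had 279, 366 and 270 reads, and ITFG3 had 144, 152 and 107. MAP7D3, a microtubule-binding protein, had 103, 219 and 253 reads, and TMEM156 had 267, 369 and 361. MRPL43, ITFG3, MAP7D3 and TMEM156 had no 3ʹ-most-exon reads in any library. For such genes no exchange between intron and 3ʹ-most exon can be measured in these data.

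At the lower end the intronic pA was a minor product of a strongly read gene. NPEPL1, an aminopeptidase-like protein, had 6, 3 and 13 reads at its intronic pA, beside 1203, 1686 and 2301 reads in the 3ʹ-most exon. SCLY, selenocysteine lyase, had 6, 5 and 4 intronic and 388, 332 and 229 3ʹ-most-exon reads. The other 3 of the 5 lowest shares, among genes with at least 30 reads at every time, were further pAs of genes with a much stronger constitutive intronic pA. NAP1L1 had 18, 22 and 26 reads at position 76441563 and 79, 98 and 60 at position 76443210. HGF had 5, 8 and 6 reads at position 81380216 of chromosome 7.

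The constitutive intronic pAs lay closer to the gene end than other intronic pAs. For the 346 with a 3ʹ-most-exon pA to measure from, the median distance to the most abundant one was 12084 nt, with quartiles of 4400.5 and 36441 nt. For 9426 other intronic pAs the median was 23554.5 nt. Under 1000 nt lay 19 of the 346 (5.49%), against 141 of the 9426 others, and beyond 50000 nt lay 64 (18.5%), against 2729 (29.0%). The nearest pA was 100 nt away (NAP1L1, position 76441563) and the farthest 368625 nt. Long genes offer more distant positions, and gene length was not measured here.

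Most host genes, 342 of 388, had 1 constitutive intronic pA. The other 46 had several and held 107 of the 449 pAs, with 36 genes having 2, 6 having 3, 3 having 4 (ASPH, CD274 and RGMB) and 1 having 5 (HGF). In 28 of the 46 genes the closest pair lay less than 1000 nt apart, and the median smallest gap was 324.5 nt. Pairs this close are not independent observations. In all, 4 constitutive pAs were listed under a further gene, those of RBM4, ALG11, GNAL and MICAL1, so that their reads cannot be assigned to 1 gene.

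HGF encodes hepatocyte growth factor, the ligand of the receptor MET. Its strongest intronic pA, on the minus strand at position 81372007 of chromosome 7, had 670, 385 and 122 reads at 0, 0.5 and 2 h. The pA at 81371428 also had its fewest reads at 2 h, with 27, 13 and 9. The pAs at 81337099, with 44, 59 and 43 reads, and at 81370404, with 13, 10 and 24, did not take this course. The strongest pA held 81.9%, 72.0% and 48.6% of the intronic and 3ʹ-most-exon reads of HGF at the 3 times. The 3ʹ-most exon had 20, 34 and 16 reads, so that the lower share came with fewer reads at this pA.

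CD274 encodes PD-L1, the immune checkpoint ligand of PD-1, and had 4 constitutive intronic pAs within 5382 nt of chromosome 9. At position 5463318 there were 24, 14 and 49 reads at 0, 0.5 and 2 h, and 80 nt upstream, at position 5463238, there were 23, 3 and 12. At position 5457936 there were 8, 22 and 8 reads, and at 5458898 there were 4, 11 and 8. The upstream pair was thus highest at 0.5 h, where the downstream pair was lowest. The 3ʹ-most exon of CD274 had 44, 34 and 6 reads. The pA at 5463318 held 53.8% of the reads of the gene at 2 h (interval 43.1 to 64.4), against 22.2% at 0 h (14.8 to 31.2).

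RGMB, a co-receptor for bone morphogenetic proteins, had 24, 24 and 19 reads at position 98116089 of chromosome 5. Its pA at 98116883 had 26, 11 and 4 reads, the one at 98117115 had 11, 29 and 3, and the one at 98123988 had 10, 3 and 12. In the 3ʹ-most exon RGMB had 159, 142 and 16 reads. CAST, which encodes the calpain inhibitor calpastatin, had 18, 39 and 40 reads at position 96052143 of chromosome 5, and 16, 16 and 16 reads at 96108758. ASPH, an aspartate beta-hydroxylase, had 83, 22 and 54 reads at its strongest intronic pA. Within each of these genes the constitutive pAs differed in which time was highest.

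A constitutive intronic pA was about as steady as a 3ʹ-most-exon pA that met the same minimum. The ratio of the highest to the lowest of the 3 RPM values had a median of 2.09 over the 449 pAs (quartiles 1.56 and 3.24), against 2.02 over 4226 3ʹ-most-exon pAs (1.56 and 2.90). The ratio was under 2 for 200 constitutive pAs (44.5%), against 48.5% of the 3ʹ-most-exon pAs, and at least 4 for 75 (16.7%), against 11.1%. The ratios were smaller where counts were higher. Among the 59 constitutive pAs that had 30 or more reads at every time, the median ratio was 1.61 and 46 (78.0%) were under 2, against 1.62 and 73.3% of 1112 3ʹ-most-exon pAs.

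The balance of higher and lower levels at 2 h depended on the depth of the pAs counted. The median log2 ratio of 2 h over 0 h was -0.02 for constitutive intronic pAs and -0.23 for 3ʹ-most-exon pAs at the same minimum. At 2 h, 88 constitutive pAs (19.6%) were more than 2-fold higher than at 0 h and 68 (15.1%) more than 2-fold lower, against 9.37% and 23.0% of the 3ʹ-most-exon pAs. Among pAs with 30 or more reads at every time, the order of the medians was the other way, at -0.17 for the 59 constitutive pAs and -0.10 for the 1112 3ʹ-most-exon pAs, with 3 constitutive pAs (5.08%) more than 2-fold higher and 4 (6.78%) lower, against 7.37% and 11.4%. Between 0.5 and 2 h, 91 constitutive pAs (20.3%) were more than 2-fold higher and 65 (14.5%) lower. The 3ʹ-most-exon pAs at the same minimum had 11.7% and 17.7%. For 0.5 h over 0 h, 63 (14.0%) were higher and 54 (12.0%) lower, against 8.83% and 14.7%. Among the 59 with 30 or more reads at every time, 3 were higher and 3 lower for 2 h over 0.5 h. For 0.5 h over 0 h, 1 of them was higher and 3 were lower. The highest of the 3 levels fell at 0 h for 150 pAs, at 0.5 h for 134 and at 2 h for 165. As a set they showed no common course over time, and no test was run on these counts because the levels chose the pAs.

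**Figure D3:**
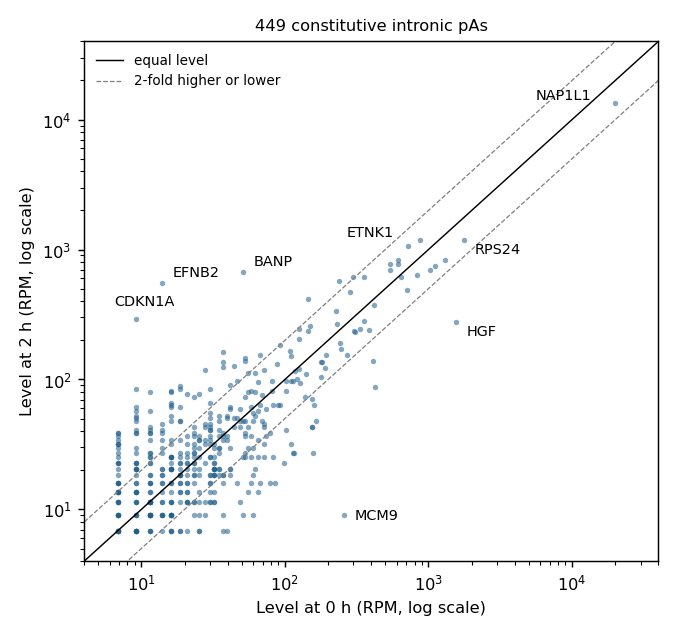
Level at 2 h against level at 0 h (RPM, both axes log scale) for the 449 constitutive intronic pAs, with the line of equal level and dashed lines at 2-fold. Of the points, 88 lie above the upper dashed line and 68 below the lower one, and the named points are the strongest pA of genes named in the text, with CDKN1A, EFNB2 and BANP far above the lines and MCM9 and HGF far below.

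The steadiest pAs are those with the smallest ratio of highest to lowest level among those that had 30 or more reads at every time. STK11, which encodes the tumour suppressor kinase LKB1, had 51, 53 and 51 reads at 0, 0.5 and 2 h (chromosome 19, position 1223874, plus strand), a ratio of 1.11. EXOSC4, a core subunit of the RNA exosome, had 180, 188 and 163 reads, a ratio of 1.12. SPOCD1 had 48, 54 and 43 reads, a ratio of 1.13. ALG11, a mannosyltransferase of N-glycan assembly, had 49, 48 and 43, and TPGS2, a subunit of the tubulin polyglutamylase complex, had 30, 41 and 33. The pA of ALG11 is also listed under UTP14C. A steady intronic pA did not imply a steady gene. EXOSC4 had 77, 62 and 15 reads in its 3ʹ-most exon.

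The pAs that were highest at 2 h relative to 0 h were led by EFNB2 and CDKN1A. EFNB2, a transmembrane ligand of Eph receptors, had 6, 7 and 244 reads at its intronic pA at 0, 0.5 and 2 h (chromosome 13, position 107180737, minus strand), which is 13.8, 13.9 and 557 RPM. The level at 2 h was 40.2 times that at 0 h (95% interval from counting error 18.2 to 111). CDKN1A encodes p21, a cyclin-dependent kinase inhibitor and target of p53. It had 4, 3 and 128 reads at its intronic pA (chromosome 6, position 36648636, plus strand), a 31.7-fold higher level at 2 h (12.1 to 118). Both pAs passed the minimum of 5 RPM with few reads at 0 and 0.5 h. All pAs named for a high or low ratio of 2 h over 0 h were picked as extremes. Their intervals are therefore too narrow to serve as a test.

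BANP, a nuclear protein that binds DNA, was higher at each step, with 22, 95 and 295 reads (chromosome 16, position 87986354, plus strand) and a 13.3-fold higher level at 2 h than at 0 h (8.60 to 21.5). RNF219, a ring finger protein, had 4, 10 and 37 reads, and PCNXL4 had 5, 8 and 35. Their ratios of 2 h over 0 h were 9.15 (3.29 to 35.3) and 6.92 (2.70 to 22.6). EFNB2 and CDKN1A were near their 0 h level at 0.5 h, whereas BANP was already 3.73-fold higher at 0.5 h (2.33 to 6.23).

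Lower levels at 2 h were led by MCM9, a helicase of DNA repair. Its intronic pA had 112, 43 and 4 reads at 0, 0.5 and 2 h (chromosome 6, position 119231762, minus strand), so that the level at 2 h was 0.035 of that at 0 h (0.009 to 0.093). PQLC2, a lysosomal transporter of cationic amino acids, had 68, 45 and 12 reads, a ratio of 0.17 (0.086 to 0.33). IKBIP had 22, 23 and 4, with a wide interval of the ratio (0.045 to 0.53). MCM9 and PQLC2 had no 3ʹ-most-exon reads in any library. RGMB at position 98116883, named above, was also among the lowest ratios.

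**Figure D4:**
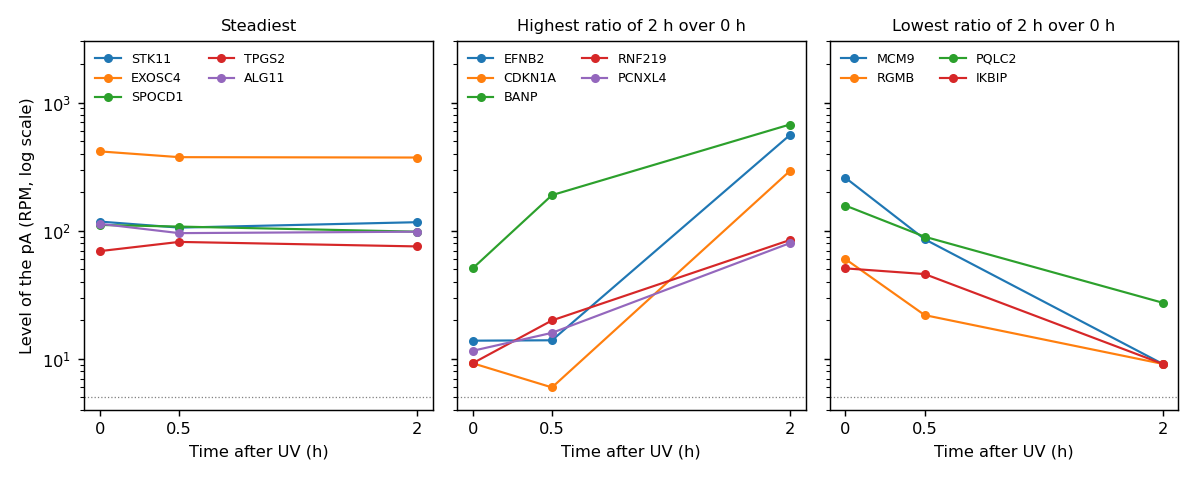
Level of single intronic pAs (RPM, log scale) at 0, 0.5 and 2 h for the named pAs with the steadiest course (left), the highest ratio of 2 h over 0 h (middle) and the lowest ratio (right), drawn where the pA had at least 40 reads in all, with the minimum of 5 RPM dotted. The EFNB2 and CDKN1A lines are at 13.9 and 5.98 RPM at 0.5 h and end at 557 and 292 RPM, and the MCM9 line ends at 9.13 RPM against 258 RPM at 0 h.

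The largest rises at 0.5 h were smaller than those at 2 h. The largest falls, apart from that of MCM9, were of like size. The lowest ratio to 0 h was 0.11 for CD274 at 0.5 h, and the lowest after MCM9 at 2 h was 0.15 for RGMB. The highest ratios of 0.5 h over 0 h were those of TMPO, a protein of the nuclear lamina, with 5, 25 and 25 reads, and MICAL1, an actin-oxidising enzyme, with 3, 15 and 3. The pA of MICAL1 is also listed as a 3ʹ-most-exon pA of ZBTB24, so that its reads may belong to either gene. DSCR3, a subunit of an endosomal sorting complex, had 7, 34 and 35 reads, SOGA1 had 3, 14 and 14, and EVC, a ciliary protein of hedgehog signalling, had 3, 13 and 10. TMPO, DSCR3, SOGA1 and EVC were still higher at 2 h than at 0 h, while MICAL1 was back at its 0 h level. The lowest ratios were those of CD274 at position 5463238, and of RPL34 (28, 5 and 6 reads), ERCC1 (26, 5 and 8), PNKD (26, 5 and 21) and FANCM (18, 4 and 8). ERCC1 is a subunit of a nuclease of nucleotide excision repair and FANCM a DNA translocase of the Fanconi anaemia pathway. The interval of the ratio stayed above 1 for the 5 highest, with the lowest bound at 1.03 for EVC, and below 1 for the 5 lowest. These pAs were picked as the extremes of 449, so that their intervals are too narrow to serve as a test.

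Pathway genes were counted from lists taken from general knowledge. Of 31 DNA damage response genes in the table, 6 were host genes (CHEK1, FANCD2, FANCI, ERCC1, ERCC8 and CDKN1A), beside 388 of all 9431 genes (4.11%). Only a gene with an intronic pA can be a host. Such genes were 20 of the 31, and 7.08% of all genes with an intronic pA were hosts. FANCD2 and FANCI encode the partner proteins that are ubiquitinated in DNA crosslink repair. FANCD2 had 23, 39 and 61 reads at its intronic pA at 0, 0.5 and 2 h (chromosome 3, position 10140696, plus strand), with 24, 30 and 37 in the 3ʹ-most exon. FANCI had 27, 36 and 35 intronic and 16, 13 and 13 3ʹ-most-exon reads. The checkpoint kinase gene CHEK1 had 9, 7 and 5 reads, and ERCC8, a factor of transcription-coupled repair, had 14, 11 and 8. The 6 genes thus differed in which time was highest.

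Cohesin and its loaders contributed 3 of 9 genes in the table, 8 of which had an intronic pA. NIPBL, the cohesin loader, had 25, 10 and 36 reads at position 37064580 of chromosome 5 and 15, 7 and 9 reads at 37064434. STAG1, a cohesin subunit, had 3, 7 and 14 reads, and PDS5A, a cohesin regulator, had 5, 5 and 5. CSTF3, of the cleavage stimulation factor, was the host gene among 17 cleavage and polyadenylation factors and had 14, 10 and 14 reads. SNRPD1, a core protein of spliceosomal snRNPs, was the host gene among 27 U1 snRNP and splicing factors, with 4, 7 and 17 reads. None of 18 genes of RNA polymerase II and elongation, 11 of which had an intronic pA, was a host gene. Of 13 genes in the table with intronic polyadenylation known from other work, 2 were hosts (CSTF3 and FANCD2), and of 9 genes the study names for APA, which it chose on these samples, 3 were hosts (CDKN1A, EFNB2 and DSCR3). Cytosolic ribosomal protein genes, a group chosen after the values were seen, held 7 hosts of 58 in the table, 36 of which had an intronic pA. These counts stand beside 4.11% hosts among all genes and 7.08% among genes with an intronic pA. No test was run on the lists, and nothing is read from their counts.

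Intron-APA was called where the reads of an intronic pA against all 3ʹ-most-exon reads of its gene differed between 2 libraries, by Fisher's exact test at p below 0.05 and with a change above 5 percentage points. For 2 h over 0 h, 66 of 337 testable constitutive pAs were called up (19.6%), where 9.5% of all testable intronic pAs were, and 17 were called down (5.04%), where 0.975% were. Of 323 testable pAs, 53 were called up for 2 h over 0.5 h (background 9.14%) and 16 down (1.7%). Of 335 testable pAs, 34 were called up for 0.5 h over 0 h (background 4.37%) and 20 down (2.17%). The rule used the intronic reads of these pAs, and a pA with more reads is called more easily, so that nothing is read from these counts. Against the 3ʹ-most exon alone, the intronic share of EFNB2 was 97.2% at 2 h, against 2.70% at 0 h. That of CDKN1A was 62.1% at 2 h, against 7.84% at 0 h, and that of ANKRD10 was 13.9% at 2 h, against 66.7% at 0 h.

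The 3ʹ-most-exon level of the host genes was not used by the rule. It was called changed where Fisher's exact test of the gene's reads against the rest of the table gave a Benjamini-Hochberg adjusted p below 0.05 and the log2 RPM ratio, with 0.1 RPM added, was beyond 1 or -1. For 2 h over 0 h, 38 of 289 testable host genes were lower (13.1%), where 9.69% of all testable genes were, and 9 were higher (3.11%), where 3.42% were. Of 275 testable host genes, 25 were lower at 2 h than at 0.5 h (9.09%, background 6.3%) and 9 higher (3.27%, background 3.68%). Of 285 testable host genes, 14 were lower at 0.5 h than at 0 h (4.91%, background 4.71%) and 5 higher (1.75%, background 2.13%). The median log2 ratio was the same for hosts and for all genes to 2 decimals for 2 h over 0 h (-0.43) and for 0.5 h over 0 h (-0.21). It was -0.22 for hosts and -0.21 for all genes for 2 h over 0.5 h. Host genes also had more 3ʹ-most-exon reads, with medians of 10 to 11 per library against 6 to 6.67 over all genes, which makes a call easier, and the part of read number in the counts was not tested.

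Among the genes that fell, EFNB2 had 216, 104 and 7 reads in the 3ʹ-most exon at 0, 0.5 and 2 h, the fewest at 2 h, where its intronic pA had the most. The log2 ratio of its 3ʹ-most-exon level was -4.95 for 2 h over 0 h (adjusted exact p = 3.55e-53, Fisher's exact test) and -3.69 for 2 h over 0.5 h (adjusted exact p = 1.34e-18). TNFRSF1A, the receptor TNFR1 for tumour necrosis factor, had 85, 127 and 11 3ʹ-most-exon reads, a log2 ratio of -3.33 for 2 h over 0.5 h (adjusted exact p = 1.00e-20). Its intronic pA had 84, 112 and 67 reads. PIP4K2B, a phosphoinositide kinase, had 12, 20 and 0 3ʹ-most-exon reads, at least 5.82-fold lower at 2 h than at 0.5 h when 0 is set to a floor of 3 reads per library (adjusted exact p = 8.98e-05).

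Smaller genes rested on few reads. The 3ʹ-most-exon reads at 0, 0.5 and 2 h were 11, 1 and 0 for HSPA14, a member of the HSP70 family, and 8, 0 and 0 for MED8, a Mediator subunit. They were 7, 0 and 0 for BANP, 7, 10 and 0 for WLS, a carrier of Wnt proteins, and 7, 3 and 0 for RPRD1A, which binds the tail of RNA polymerase II. Each of these 5 passed the test for 2 h over 0 h, with bounds from at least 2.36-fold to at least 3.71-fold lower and adjusted exact p from 4.70e-03 to 4.41e-02. ELP5, of the Elongator complex, had 13, 1 and 1 reads and fell for 0.5 h over 0 h (adjusted exact p = 8.17e-03). BDH1, a ketone body dehydrogenase, had 15, 2 and 13, lower at 0.5 h than at 0 h and higher at 2 h than at 0.5 h, and both passed the test (adjusted exact p = 1.20e-02 and 2.26e-02). FAM210B had 3, 12 and 1 reads and fell for 2 h over 0.5 h (adjusted exact p = 3.19e-02).

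Among host genes that rose, FRMD4A, a scaffold of cell polarity, had 41, 204 and 116 3ʹ-most-exon reads. Its log2 ratio was 2.10 for 0.5 h over 0 h (adjusted exact p = 2.95e-20) and 1.48 for 2 h over 0 h (adjusted exact p = 5.52e-08). ANKRD10 had 5, 6 and 31 reads, a log2 ratio of 2.61 for 2 h over 0 h (adjusted exact p = 2.05e-04), and NCAPH2, a condensin II subunit, had 0, 7 and 13, at least 4.29-fold higher (adjusted exact p = 2.78e-03). ZNF771, a zinc finger protein, had 3, 22 and 17, and LBX2, a homeobox protein, had 18, 34 and 61, and both were called higher for 2 h over 0 h. For 0.5 h over 0 h the other rises were PDS5A (2, 17 and 2 reads), NAIF1 (32, 98 and 81) and GPSM1, a modulator of G protein signalling (25, 62 and 43). Between 0.5 and 2 h they included FADS3, a fatty acid desaturase family member (20, 19 and 45), SLC38A10 (14, 12 and 28) and COQ4, of coenzyme Q synthesis (20, 16 and 32). FRMD4A and NAIF1 had their highest level at 0.5 h and were lower at 2 h, and ANKRD10 was highest at 2 h.

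The constitutive intronic pAs of the genes that were lower at 2 h did not, when summed, follow the 3ʹ-most exon. In the 38 genes that were lower at 2 h than at 0 h, 3ʹ-most-exon reads summed to 697 at 2 h, against 2437 at 0 h, which is 1591 RPM against 5625 RPM. Their 53 constitutive intronic pAs summed to 2828 reads at 2 h, against 1869 at 0 h, which is 6456 RPM against 4314 RPM. Without EFNB2 and BANP, 51 pAs still summed to 5226 RPM at 2 h, against 4249 RPM at 0 h, which is 2289 reads against 1841. Most of this remaining difference lay in 3 genes. These were ETNK1 (469 reads at 2 h, 313 at 0 h), TCEB2 (520 and 379) and SLC16A14 (269 and 155), so that the higher sum was not spread over the 38 genes. Of the 53 pAs, 30 were higher and 23 lower at 2 h, with a median log2 ratio of 0.35, beside -0.02 over all 449. In the 9 genes that were higher, 10 constitutive pAs had a median log2 ratio of -0.23, with 4 higher and 6 lower. Their sum was nevertheless higher, at 441 RPM at 2 h, against 344 RPM at 0 h, the same direction as the 3ʹ-most exon (1043 RPM at 2 h, against 372 RPM at 0 h). The genes were chosen on their 3ʹ-most-exon ratio, and this choice fixes part of the gap between the 2 kinds of pA. The minimum of 5 RPM fixes a further part, because no constitutive pA can be below it in any library. Nothing is therefore read from the size or direction of this gap.

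**Figure D5:**
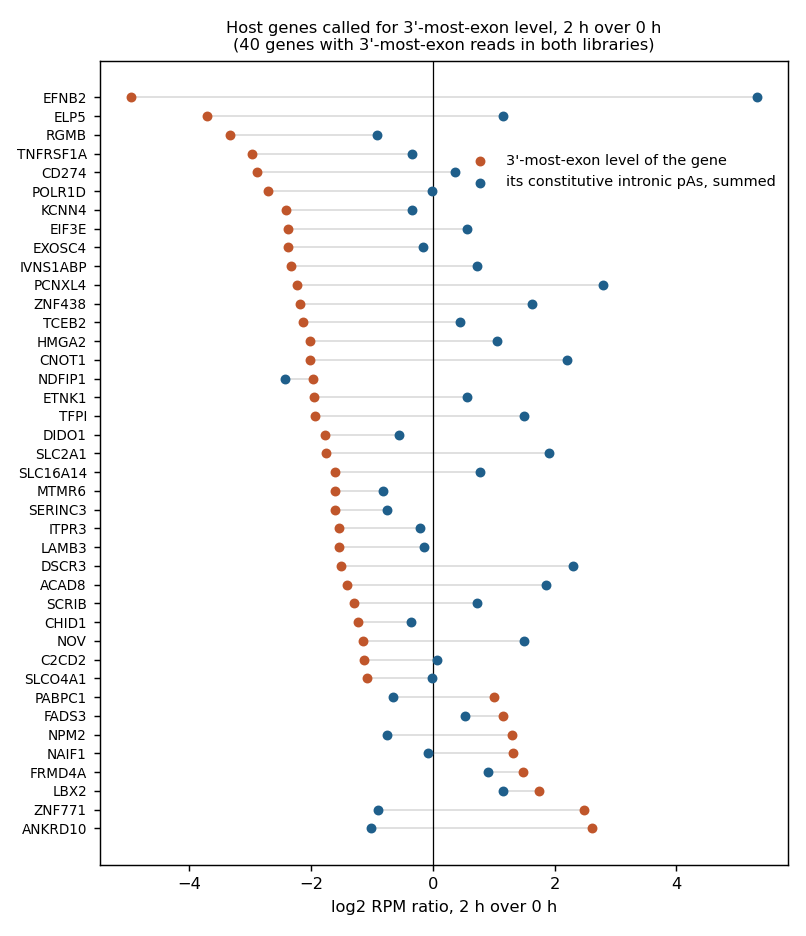
Log2 RPM ratio of 2 h over 0 h for 40 host genes called for 3ʹ-most-exon level, with the 3ʹ-most exon in orange and the summed constitutive intronic pAs in blue, and 7 called genes with no 3ʹ-most-exon reads in 1 library left out. The blue point lies to the right of the orange one in 31 of the 32 genes that were lower, NDFIP1 being the exception, and to its left in all 8 that were higher. The choice of genes and the minimum level of the pAs both favour this order.

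The shorter windows held fewer called genes. For 2 h over 0.5 h, 36 constitutive pAs in the 25 lower genes had a median log2 ratio of 0.15, with 19 higher and 17 lower. Their sum was 3678 RPM at 2 h, against 2822 RPM at 0.5 h, and without EFNB2 it was 3121 RPM, against 2808 RPM. For 0.5 h over 0 h, 14 pAs in the 14 lower genes had a median of 0.42, with 9 higher and 5 lower. In the 9 genes that were higher for 2 h over 0.5 h, 9 pAs had a median of 0.75, with 7 higher and 2 lower. In the 5 genes that were higher for 0.5 h over 0 h, 6 pAs had a median of -0.27, with 2 higher and 4 lower. Over all constitutive pAs the medians were 0.03 for 2 h over 0.5 h and 0.04 for 0.5 h over 0 h. These genes too were chosen on their 3ʹ-most-exon ratio, so that nothing is read from the values.

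Intronic pAs of the same host genes that did not meet the minimum were also read more at 2 h. The 388 host genes listed 1253 further intronic pAs, which had 1064, 1140 and 1824 reads at 0, 0.5 and 2 h, or 2456, 2272 and 4164 RPM. In the 5091 other genes with intronic pAs, such reads were 5616, 7229 and 14732, or 12962, 14405 and 33632 RPM. The higher level at 2 h at these other pAs of host genes stood beside the near-level sum of the constitutive ones. Part of this follows from the rule, which places pAs that are low at 0 h and high at 2 h among the further ones. The 3ʹ-most exons of the host genes had 13904, 15568 and 12362 reads, or 32092, 31022 and 28221 RPM.

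3ʹUTR-APA, the exchange between the 2 most abundant pAs of the 3ʹ-most exon, was tested on reads that the rule did not use. The share of the proximal pA was called up or down by Fisher's exact test at p below 0.05 and with a change above 5 percentage points. For 0.5 h over 0 h, 7 of 139 testable host genes were called up (5.04%, background 6.53%) and 10 down (7.19%, background 5.53%). Of 127 testable genes, 10 were called up for 2 h over 0.5 h (7.87%, background 8.3%) and 10 down (7.87%, background 7.13%). For 2 h over 0 h, 11 of 145 were called up (7.59%, background 6.75%) and 7 down (4.83%, background 5.79%). These counts are near the share over all genes.

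The smallest p-values belonged to SSR3, CANX, REEP5 and COG5. SSR3, a subunit of the translocon-associated protein complex, had 350, 168 and 252 proximal and 180, 271 and 157 distal reads at 0, 0.5 and 2 h. Its proximal share was 38.3% at 0.5 h, against 66.0% at 0 h (adjusted exact p = 5.78e-15, Fisher's exact test), and was back at 61.6% at 2 h (adjusted exact p = 1.37e-08 for 2 h over 0.5 h). REEP5, which shapes the endoplasmic reticulum, took the same course, with 71.5% at 0.5 h, against 86.8% at 0 h (adjusted exact p = 4.66e-02), and 89.5% at 2 h (adjusted exact p = 9.65e-03 for 2 h over 0.5 h). CANX, the chaperone calnexin, had a proximal share of 20.4% at 2 h, against 39.6% at 0.5 h (adjusted exact p = 1.72e-05). COG5, of the Golgi tethering complex, had 12, 5 and 9 proximal and 0, 9 and 17 distal reads. The share of COG5 was lower at 0.5 h than at 0 h (adjusted exact p = 3.57e-02) and lower at 2 h than at 0 h (adjusted exact p = 1.08e-02).

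Further called genes had larger p-values. YARS2, the mitochondrial tyrosyl-tRNA synthetase, had 0 proximal and 22 distal reads at 2 h, against 10 and 16 at 0 h (adjusted exact p = 3.25e-02). HMGA2, a chromatin architectural protein, had 4 proximal and 3 distal reads at 2 h, against 0 and 23 at 0 h (adjusted exact p = 3.99e-02). TOP3A, a DNA topoisomerase, had a proximal share of 100% at 2 h, against 70.3% at 0 h (adjusted exact p = 4.56e-02). SLCO4A1, an organic anion transporter, had a proximal share of 11.7% at 2 h, against 3.04% at 0.5 h (adjusted exact p = 2.02e-02). The called shares of ACAD8, CNOT1 and PLAUR for 0.5 h over 0 h, of SNRPD1 and EVC for 2 h over 0.5 h, and of SLCO4A1 for 2 h over 0 h had adjusted exact p from 5.25e-02 to 0.197.

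The minimum of 5 RPM divided pAs of like courses. Of the 449 pAs, 78 had exactly 3 reads in at least 1 library. Just inside were CDKN1A with 4, 3 and 128 reads, SLC2A1, the glucose transporter GLUT1, with 9, 3 and 34, and RGMB at position 98117115 with 11, 29 and 3. Just outside were PTGES3, a co-chaperone of HSP90, with 7, 2 and 92 reads, PEX5, the receptor for import into peroxisomes, with 44, 30 and 2, and TMED2, a cargo receptor of the early secretory pathway, with 21, 2 and 25. In all, 169 intronic pAs had at least 2 reads in each library and missed the minimum. CDKN1A and PTGES3 differed by 1 read at 0.5 h in their place at the minimum.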

How the data were processed

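3ʹREADS libraries were made from RKO nuclear RNA, 1 each at 0 h, 0.5 h and 2 h after UV. The submitters' processing notes name CASAVA, Bowtie2 and hg19, without versions. The authors took a read as evidence of a pA where 2 or more As at its end did not match the genome, assigned pAs to genes, and deposited RPM values, reads scaled to the library total. How reads were clustered into pAs is not given in the sources used here.

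Whole reads were recovered, since each RPM value equals an integer number of reads with a deviation of at most 4.00e-11 reads. The table held 433093, 501600 and 437491 of the 433261, 501838 and 438040 reads. With 1 library per time point no test across replicates was possible. Fisher's exact tests were two-sided and run on all testable pAs or genes, with Benjamini-Hochberg adjustment over all of them. They compare the reads of 2 libraries. Intervals are exact Clopper-Pearson intervals at 95%. For a ratio of 2 libraries the interval of the share of reads in the later one was converted. A count of 0 was set to 3 reads for bounds on folds. Tests were checked on simulated reads with known changes. Computation was in Python 3.11.15 with scipy 1.17.1, numpy 2.4.6, pandas 2.3.3 and, for figures, matplotlib 3.10.9.

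The pAs, gene lists and tests were chosen with earlier results of these data known. Named pAs and genes were the 10 most abundant, the 5 highest and 5 lowest ratios of 2 h and of 0.5 h over 0 h (at least 20 reads in all), the 5 steadiest (at least 30 reads in each library), the 5 genes with most constitutive pAs, the 5 highest and lowest shares of a gene, those without 3ʹ-most-exon reads (up to 5), members of the lists, the 5 largest called rises and falls of 3ʹ-most-exon level per window, the 3 smallest p per direction of 3ʹUTR-APA, and 3 pAs on each side of the minimum. TNFRSF1A, KRT8 and ANKRD10 also have intronic values printed, and NDFIP1 and SLC16A14 were named after their values were seen. Alternatives covered the minimum level, pAs listed under several genes, adjustment, a minimum of 10 reads, the library total, the RPM added and the pAs compared.

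Sequence around the pAs and their introns is not analysed here, since the reference tables at hand are of another build than hg19. One pA that the naming rule picks is not reported here.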

Additional observations from a re-analysis of the deposited data

How the results depend on the processing

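With 1 library per time point, depth and 1 read of 1.99 to 2.31 RPM limit what can be seen: the median constitutive pA had 10 to 13 reads in a library, and 78 of the 449 pAs had 3 reads, the fewest the minimum allows, in at least 1 library. No paired analysis was possible because each time point has 1 library. Under other settings, 41 counts stayed within 1.5 times of the reported count. All alternatives for the 3ʹ-most-exon level were among the 41: the total without the 10 most abundant pAs, 1 RPM added, and at least 10 reads in the higher library.

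The number of constitutive intronic pAs was 298 at a minimum of 10 RPM and 172 at 20 RPM. Without NAP1L1, an alternative chosen after seeing the data, the share of intronic reads was 68.1%, 64.9% and 46.7% at 0, 0.5 and 2 h. With adjusted p, intron-APA calls were 5 up and 4 down for 0.5 h over 0 h, 24 up and 2 down for 2 h over 0.5 h, and 29 up and 3 down for 2 h over 0 h, since fewer pass a stricter threshold. With adjusted p, 3ʹUTR-APA calls among host genes by Fisher's exact test were 0 up (7 at unadjusted p) and 3 down for 0.5 h over 0 h, 3 up and 1 down for 2 h over 0.5 h, and 2 up and 3 down for 2 h over 0 h, where down calls then outnumbered up calls. Where the compared pAs had to hold 10 or more reads per library, 6 host genes were called down for 0.5 h over 0 h and 6 up for 2 h over 0.5 h, from fewer genes tested. Sums without EFNB2 and BANP were also chosen after seeing the data.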
